A study of Rattus norvegicus with 8 samples.

Results

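The cytosolic ribosomal proteins are the proteins of the ribosome outside mitochondria, and their genes were followed here in full-thickness rat skin. Members were the probes whose RefSeq accession maps to a rat symbol that begins with Rpl or Rps and a digit, together with Rplp0, Rplp1, Rplp2 and Rpsa. The 4 genes of the Rps6k kinases were left out. This rule found 78 probes for 76 genes among the 24684 noncontrol probes and 13903 named genes of the array. They comprised 28 genes of the small subunit, 43 of the large subunit and 5 paralogs (Rpl22l1, Rpl27l2, Rpl36al1, Rpl37l1 and Rps12l4). All members but Rpl27l2 were bright enough to be tested, which left 75 genes.

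Male Sprague-Dawley rats were injected intraperitoneally with streptozotocin (STZ), which destroys pancreatic beta cells and so causes diabetes, at 60 mg/kg when 4 weeks old, and the sham group was given sodium citrate solution. Both groups were housed for 4 weeks, and skin of the whole thickness was taken at 8 weeks of age. The labels name no engineered allele in either group. The labels also mention a skin wound without saying whether the profiled skin was wounded, and they do not say how many rats 1 array represents.

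The labels list 4 replicates a group, but the data are readings of 4 arrays. Replicates 1 and 3 of each group shared an array position on the slide, as did replicates 2 and 4, and their log2 intensities differed with an SD of 0.0784 to 0.0973. Readings of different arrays of a group differed with an SD of 0.855 to 1.17. Each such pair was averaged, so that n = 2 arrays a group: sham array A and STZ array A hold replicates 1 and 3, and sham array B and STZ array B hold replicates 2 and 4. Readings had 20267 to 22889 of 24684 probes well above background and no saturated spot. The 75th percentile of intensity was 606 to 624 on STZ array B and 1138 to 1496 on the other 3 arrays. With 2 arrays against 2, an exact permutation test cannot go below p = 0.333. The p-values below come from limma and measure the spread between these arrays, which may be technical.

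Ribosomal proteins are assembled with ribosomal RNA into a small subunit, which reads the mRNA, and a large subunit, which joins amino acids. Most of their mRNAs begin with a cytosine and a run of pyrimidines, the terminal oligopyrimidine (TOP) motif, through which mTORC1 and the protein Larp1 control their translation together. In skin, dividing keratinocytes, growing hair follicles and activated immune cells all have a high demand for ribosomes. An array measures the amount of mRNA and not its translation.

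The start sites of several members are shown because the TOP motif is the sequence feature these genes are known to share. Each is the 30 bases around the start of the gene as RefSeq annotates it on GRCr8, 15 bases on either side, written 5′ to 3′ on the strand of the gene. Capitals mark a run of at least 5 C or T bases that holds or touches the start. The windows of Rplp0 (chr12:46718376-46718405, minus strand), Rplp1 (chr8:71290858-71290887, minus strand), Rpl28 (chr1:78083518-78083547, minus strand), Rps10 (chr20:5700730-5700759, minus strand), Rps15a (chr1:181860270-181860299, minus strand) and Rpl27a (chr1:172974558-172974587, plus strand) hold such a run. Those of Rps6 (chr5:106420526-106420555, minus strand), Rpl6 (chr12:41011676-41011705, minus strand) and Rpl22l1 (chr2:113683181-113683210, plus strand) do not.
Rplp0: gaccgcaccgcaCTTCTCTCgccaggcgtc
Rplp1: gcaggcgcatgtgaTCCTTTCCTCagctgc
Rpl28: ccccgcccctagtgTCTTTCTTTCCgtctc
Rps10: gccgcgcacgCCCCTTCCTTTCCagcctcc
Rps15a: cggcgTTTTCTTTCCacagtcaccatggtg
Rpl27a: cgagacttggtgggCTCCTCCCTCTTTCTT
Rps6: gacgcctcctaggcggtcggctgtgtcaag
Rpl6: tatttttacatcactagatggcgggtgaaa
Rpl22l1: gctccgtggatatccggttccgagttgcgc

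The promoter table held 61 of the 76 member genes. A pyrimidine run at the start was present in 39 of the 61 (63.9%), against 4650 of all 27457 genes of the table (16.9%). Only the strand of the gene was searched. The stricter form, in which the annotated first base is C and 4 C or T bases follow, was present in 21 of the 61 (34.4%), against 854 of all genes (3.11%). An annotated start can lie some bases from the true one, so that a window without a run says only that those letters are not there.

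The ribosomal protein mRNAs of STZ skin lay close to those of sham skin, and no member gene passed the test in either direction. Levels are log2 intensities relative to the 75th percentile of the array. Changes are STZ minus sham relative to the median change of all tested probes, which was itself 0.23. For a named gene, arrays are compared on levels, without that subtraction. Counts of genes whose groups stand apart are made after 0.23 is subtracted from the STZ levels. The median change of the 75 genes was 0.13, from -0.71 (Rpl15) to 0.64 (Rpl32), and 57 genes lay above 0 and 18 below. Their changes had an SD of 0.223, against 1.13 over all 21529 tested probes. In 72 of the 75 genes (96%) the change was within 0.5 of the median, as it was in 44.3% of all tested probes.

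The test was limma's moderated test of STZ against sham on the 75th percentile scale. At an unadjusted p under 0.05, 0 of the 75 members were higher and 0 were lower, against a background of 7.32% of all tested probes higher and 3.53% lower (10.9% in either direction). With the test taken relative to the median change, again 0 members were called, against 5.42% of all tested probes higher and 5.11% lower (10.5% in either direction). The lowest adjusted p of a member was 0.603 (Rpl32). Over the whole array no probe had an adjusted p under 0.05 (lowest 0.0761), while 1575 probes with higher and 761 with lower signal had an unadjusted p under 0.05. A member without a call may still differ between the groups, since the 95% intervals of the members' changes ran from -1.87 at the lowest bound to 1.96 at the highest. These intervals and the absence of calls rest partly on the variance shared over all tested probes. Rps13, a member with close arrays, had SDs of 0.042 in sham and 0.023 in STZ skin, beside a standard error of 0.41.

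**Figure D1:**
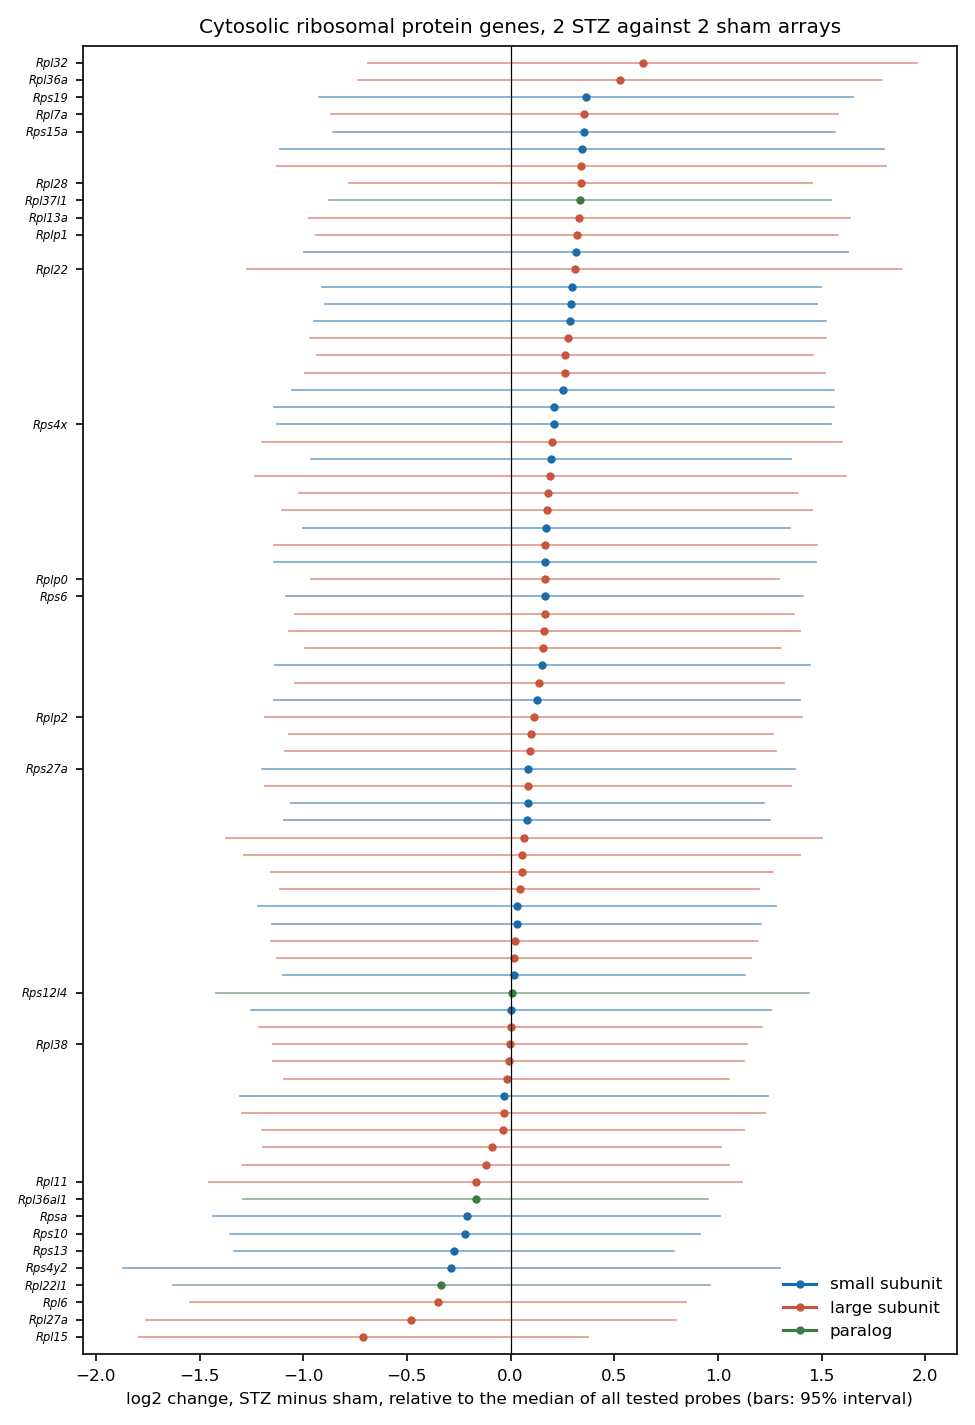
Log2 change, STZ minus sham, of each of the 75 tested ribosomal protein genes centred on the median change over the array, ordered by size, with bars for the 95% interval from limma colours for the subunit and labels for the genes named in the text. The points run from -0.71 (Rpl15) to 0.64 (Rpl32), and every interval holds 0.

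The small shift above the median was present on 1 of the 2 STZ arrays. Against the mean of the sham arrays, and relative to all tested probes, the members' median was 0.32 on STZ array B and -0.04 on STZ array A. On the 75th percentile scale, 70 of 75 members (93.3%) lay above the sham mean on STZ array B, against 62.3% of all tested probes. On STZ array A 35 members (46.7%) did so, against 52.7% of all tested probes. The member median change was -0.04 without STZ array B and 0.32 without STZ array A.

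STZ array B was higher than STZ array A in 72 of 75 members (96%), against 63.7% of all tested probes. The exceptions were Rpl36al1, Rps12l4 and Rps13. Between the sham arrays the members differed with a median SD of 0.14, and between the STZ arrays with a median SD of 0.49. In 65 of the 75 genes the SD was larger between the STZ arrays. The STZ arrays were also the wider pair over all tested probes. Across those probes, the difference between arrays A and B had an SD of 0.896 in sham and 1.17 in STZ skin.

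**Figure D2:**
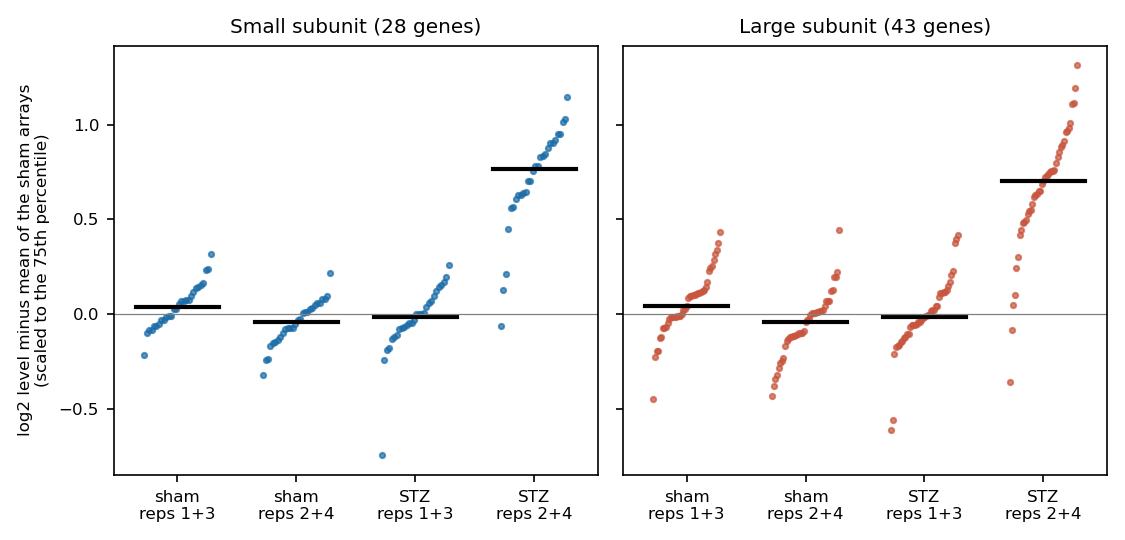
Level of each tested gene on each of the 4 arrays minus the mean of the sham arrays, in log2 units on the 75th percentile scale, for the small subunit (28 genes) and the large subunit (43 genes), with a line at each median. Members of both subunits lie near 0 on STZ array A and mostly above it on STZ array B.

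Members supplied 8.45% of the summed probe signal on sham array A, 8.71% on sham array B, 8.77% on STZ array A and 12.5% on STZ array B. The array with the highest share was also the one with the lowest 75th percentile of intensity. Other bright genes shared its shift. Of the 117 tested probes of other genes at a level of 6 or more, the median on STZ array B was 0.30 above the sham mean relative to all tested probes, beside 0.32 for the members. With cyclic loess, which evens out differences that follow brightness, the values on STZ array B were 0.36 for these probes and 0.37 for the members. Quantile normalization gave 0.13 for these probes and 0.15 for the members, and normexp with quantile normalization gave 0.13 and 0.11, so that the size of the shift depended on the normalization. The level of 6 was chosen after the data were seen, and the part of brightness in the shift was not tested.

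Other bright probes spread more widely than the bright members. The 57 members at a level of 6 or more had a median change of 0.16 and an SD of 0.139, and 98.2% lay within 0.5 of the median. The 117 other probes had a median change of 0.15 and an SD of 0.651, and 75.2% lay within 0.5. Of these other probes, 6 were higher and 4 lower at the unadjusted threshold of 0.05, beside 7.32% and 3.53% of all tested probes. None of the 57 members was either, and the difference in counts was not tested.

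**Figure D3:**
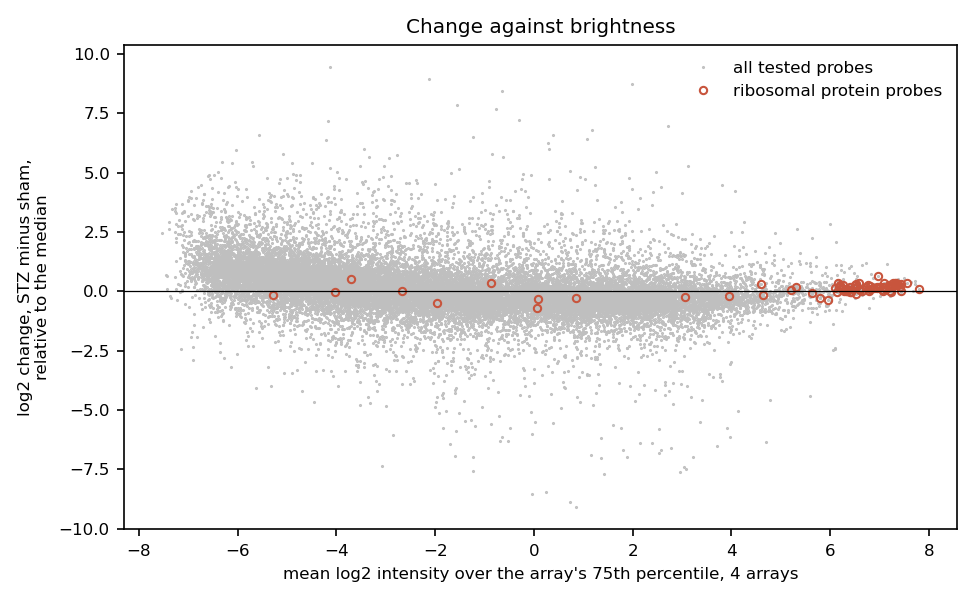
Log2 change relative to the median against the mean log2 level over the 4 arrays, for all tested probes (grey) and for the ribosomal protein genes (coloured). Most members sit at the bright end within 0.5 of 0, and the 9 members below a level of 2 scatter more widely, from -0.71 to 0.53.

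Among the small subunit genes the median change was 0.16, and 23 of 28 lay above 0. Rps19, which is mutated in inherited Diamond-Blackfan anaemia, had levels of 7.35 and 7.16 on sham arrays A and B and of 7.41 and 8.28 on STZ arrays A and B. The STZ levels were the higher ones, with a change of 0.36 ± 0.50 (SE, n = 2 arrays a group). Rps15a had levels of 7.22 and 6.89 in sham and 7.31 and 7.96 in STZ skin, with a change of 0.35 ± 0.47. In both genes the gap between the STZ arrays exceeded that between the sham arrays.

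Rps6, the substrate of the S6 kinases downstream of mTORC1, had levels of 7.19 and 6.95 in sham and 7.07 and 7.85 in STZ skin. Its STZ array A level lay between the sham levels, and its change of 0.16 ± 0.49 was a fraction of its error. Rps27a, made as a fusion with ubiquitin, had levels of 6.0 and 6.17 in sham and 5.96 and 6.84 in STZ skin, with a change of 0.08 ± 0.50.

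A few small subunit genes lay below the median change. Rps13 had levels of 5.78 and 5.84 in sham and 5.78 and 5.75 in STZ skin. It was 1 of 3 genes in which STZ array B did not exceed STZ array A, and its change was -0.27 ± 0.41. Rps10 had levels of 2.84 and 3.27 in sham and 2.94 and 3.18 in STZ skin, so that its groups overlapped, with a change of -0.22 ± 0.44. Rpsa, which is also named the laminin receptor, had levels of 4.27 and 3.63 in sham and 3.77 and 4.16 in STZ skin, with a change of -0.21 ± 0.48. Its STZ levels lay within the sham range.

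In the large subunit the median change was 0.11, and 32 of 43 genes lay above 0. The stalk proteins Rplp0, Rplp1 and Rplp2, which bind the GTPases of translation, had changes of 0.17 ± 0.44, 0.32 ± 0.49 and 0.11 ± 0.50. Rplp0 had levels of 7.20 and 7.23 in sham and 7.36 and 7.85 in STZ skin. Rplp1 had 7.16 and 7.18 in sham and 7.30 and 8.13 in STZ skin on the probe printed in 10 spots. Rplp2 had 7.62 and 7.65 in sham and 7.52 and 8.43 in STZ skin. On the levels as given, all 3 were highest on STZ array B, and only in Rplp2 was STZ array A below both sham arrays.

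Rpl32 had the largest change and the lowest p of the members. Its levels were 6.35 and 6.74 in sham and 6.96 and 7.86 in STZ skin, with a change of 0.64 ± 0.52 and a 95% interval of -0.69 to 1.96. Without STZ array A its change was 0.93 (adjusted p = 0.160, limma), the only instance among the alternatives run in which a member passed the unadjusted threshold of 0.05. Rpl36a, 1 of the 9 members below a level of 2, had levels of -3.86 and -4.31 in sham and -3.69 and -2.97 in STZ skin. Its change was 0.53 ± 0.49.

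Rpl7a had levels of 6.98 and 6.99 in sham and 7.19 and 7.94 in STZ skin, with a change of 0.36 ± 0.48. Rpl13a, which is also known as a translational silencer in inflamed myeloid cells, had levels of 6.44 and 6.16 in sham and 6.41 and 7.30 in STZ skin on its probe of 10 spots, with a change of 0.33 ± 0.51. Its groups overlapped, since STZ array A lay between the sham arrays. Rpl38, known for its part in the translation of Hox mRNAs, had levels of 7.30 and 7.33 in sham and 7.28 and 7.80 in STZ skin, with a change of 0.00 ± 0.44.

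Rpl13a and Rplp1 were the genes with a pair of probes each. For Rpl13a the 1-spot probe gave a change of 0.26 ± 0.49, beside 0.33 ± 0.51 on the probe of 10 spots. For Rplp1 the values were 0.28 ± 0.45 and 0.32 ± 0.49. The gap between the probes of a gene was smaller than their errors. Both probes were read on the same arrays, so this does not test their agreement.

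Rpl15 and Rpl27a were also among the 9 members below a level of 2. Rpl15 had the lowest change. Its levels were 0.23 and 0.37 in sham and -0.31 and -0.06 in STZ skin, with a change of -0.71 ± 0.42 and a 95% interval of -1.80 to 0.37 (adjusted p = 0.684, limma). Its groups did not overlap. Rpl27a had levels of -1.53 and -2.16 in sham and -2.40 and -1.79 in STZ skin, with a change of -0.48 ± 0.50, and its groups overlapped.

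Rpl6 had levels of 6.37 and 5.69 in sham and 5.86 and 5.95 in STZ skin, with a change of -0.35 ± 0.47. Its sham arrays lay further apart than its STZ arrays. Rpl11, which binds Mdm2 when ribosome assembly fails, was a dim probe with levels of -5.76 and -4.87 in sham and -5.30 and -5.21 in STZ skin, with a change of -0.17 ± 0.50. Rpl28, also below a level of 2, had levels of -1.05 and -1.27 in sham and -0.79 and -0.41 in STZ skin. Its change was 0.34 ± 0.43.

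Relative to the median change of all probes, Rpl28 was the 1 gene of 75 (1.33%) with both STZ arrays above both sham arrays, against 17.5% of all tested probes. Rpl15 and Rps13 were the 2 genes (2.67%) with both STZ arrays below both sham arrays, against 26.5%. On this scale, groups stood apart in a smaller share of the members than of all probes in both directions. The higher side depends on the subtraction. On the levels themselves, STZ array A lay above both sham arrays in 21 of the 75 members, and STZ array B in 65. Rps19 and Rpl32 were among the genes in which both STZ arrays did so. The share of all tested probes on the levels was not counted.

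The 4 tested paralogs had a median change of -0.08, with 2 above 0 and 2 below. The class follows the symbols of the GRCr8 gene table, and the records behind Rpl37l1 and Rpl36al1 may have stood for the parent genes on the array design, so that its membership is uncertain. Rpl22l1, a copy of Rpl22 that can take its place in the ribosome, had levels of -0.32 and 0.60 in sham and 0.02 and 0.05 in STZ skin, with a change of -0.33 ± 0.50, whereas Rpl22 had a change of 0.31 ± 0.61. Rpl36al1 had levels of 4.39 and 4.83 in sham and 4.71 and 4.62 in STZ skin, with a change of -0.17 ± 0.44. Rps4y2, counted with the small subunit by its symbol, had levels of 1.11 and 0.63 in sham and 0.13 and 1.50 in STZ skin. Its change was -0.29 ± 0.62, beside 0.21 ± 0.52 for Rps4x.

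Rps12l4 had levels of -3.33 and -2.25 in sham and -2.32 and -2.79 in STZ skin, with a change of 0.01 ± 0.56. Rpl37l1, whose record may be that of the parent gene, had levels of 7.10 and 6.99 in sham and 7.25 and 7.96 in STZ skin, with a change of 0.33 ± 0.47. The differences between a copy and its gene, of -0.64 for Rpl22l1, -0.70 for Rpl36al1, -0.49 for Rps4y2 and -0.28 for Rps12l4, were not tested. Near-identical copies can share signal on an array, and the probe sequences were not used here. Rpl27l2 was not well above background in any of the 4 sham readings and was so in the 2 readings of STZ array B, where its level was -5.56.

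By start sequence, the 39 tested genes with a pyrimidine run had a median change of 0.16, from -0.48 to 0.53, and the 21 without one had a median change of 0.06, from -0.35 to 0.36. Both ranges hold genes on either side of 0. Rpl27a, whose run continues to the end of its window, was the lowest of the first set.

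Genes that encode other parts of the translation system were read from fixed lists. Fau and Rack1, which encode ribosomal proteins outside the symbol rule, had changes of 0.23 and 0.15, within the range of the members, and Eef1a1, the elongation factor that brings aminoacyl-tRNA, had 0.35. The 11 tested genes of elongation and termination had a median change of -0.13, with 1 above 0 and 10 below. That median was -0.44 without sham array A, -0.38 without STZ array A, and -0.06 with 5 above 0 and 6 below under cyclic loess. The 21 tested non-ribosomal TOP mRNAs had a median change of -0.05, with 9 above 0 and 12 below. Its direction depended on the setting, since it was 0.05 with quantile normalization, 0.16 with cyclic loess (16 of 21 above 0) and 0.12 without STZ array A, and below 0 in 10 of 17 alternatives. No gene of these sets passed an unadjusted p of 0.05 in the fit of all 4 arrays scaled to the 75th percentile.

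The lists for ribosome assembly and initiation lay lower than the members. Among 62 genes of ribosome biogenesis and RNA polymerase I the median change was -0.44, and 54 were below 0. With the all-probe median subtracted, both STZ arrays lay below both sham arrays in 41 of them (66.1%), against 26.5% of all tested probes. At an unadjusted p under 0.05, 1 of the 62 was lower (Taf1a, a factor of RNA polymerase I) and 0 were higher. Mitochondrial ribosomal proteins had a median of -0.37 over 60 genes, 49 of them below 0 and 36 apart on the lower side (60%). None of these 60 was lower at an unadjusted p under 0.05 on the 75th percentile scale, and 1 was higher (Mrps35). Over all tested probes 3.53% were lower and 7.32% higher at that threshold. With the test taken relative to the median change, 2 of the 60 were called, against 10.5% of all tested probes in either direction. They were Mrps35 and Mrps9, which had a change of -1.28 and a 95% interval of -2.41 to -0.16.

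The 30 tested initiation factor genes had a median change of -0.64, with 28 below 0, 3 lower at an unadjusted p under 0.05 and 21 apart on the lower side (70%). Over all tested probes 3.53% were lower at that threshold and 26.5% apart on the lower side. The 3 genes encode subunits of eIF2B, which recharges the initiation factor eIF2 with GTP. Eif2b5 had levels of 2.41 and 2.40 in sham and 0.55 and 0.62 in STZ skin, with a change of -2.05 ± 0.41 (adjusted p = 0.224, limma). Its groups were far apart beside the gap within each. Eif2b1 had levels of 3.97 and 4.16 in sham and 2.39 and 2.64 in STZ skin, with a change of -1.77 ± 0.42. Eif2b4 had levels of 4.00 and 3.76 in sham and 2.33 and 2.62 in STZ skin, with a change of -1.63 ± 0.43. For Eif2b2 the change was -1.17 ± 0.41, with a 95% interval of -2.23 to -0.11. It missed the threshold, which applies to the 75th percentile scale (unadjusted p = 0.0718, limma). With the test taken relative to the median change, 5 of the 30 genes were called, against 10.5% of all tested probes in either direction. With either of the sham arrays left out, 0 of the 30 genes were called at the unadjusted threshold, and with normexp and quantile normalization 7 were lower. After adjustment 3 of the 30 passed with an intensity trend and 1 with median centring.

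Of 20 tested regulators in the mTORC1, TOP mRNA and Myc list, 17 were below 0, with a median of -0.52. At an unadjusted p under 0.05, 2 were lower, beside 3.53% of all tested probes. The list mixes activators and inhibitors, so its median gives no direction for the pathway. Mycn, a transcription factor of the Myc family, had levels of -1.10 and 1.47 in sham and -3.87 and -3.90 in STZ skin, with a change of -4.29 ± 0.91 (adjusted p = 0.220, limma). Sesn3, an inhibitor of mTORC1, had levels of -0.14 and 1.01 in sham and -0.73 and -1.54 in STZ skin, with a change of -1.80 ± 0.61. Eif4ebp1, the mTORC1-controlled brake on cap binding, had levels of 3.57 and 3.48 in sham and 4.38 and 4.36 in STZ skin, with a change of 0.62 ± 0.41 that did not pass. Without STZ array B the median of this list was -0.10, and without STZ array A it was -0.81.

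By array, the initiation list was at -0.36 on STZ array A and -0.78 on STZ array B, and the biogenesis list at -0.27 and -0.58. The mitochondrial ribosomal proteins were at -0.28 and -0.35. These lists were thus below the median of all probes on both STZ arrays, where the cytosolic ribosomal proteins were near or above it. The difference between lists was not tested, and the lists were not matched for brightness. With quantile normalization the medians were -0.32 for initiation, -0.20 for biogenesis, -0.16 for the mitochondrial ribosomal proteins and 0.05 for the members. The medians of the initiation, biogenesis and mitochondrial lists were below 0 in all 17 alternatives run. That of the cytosolic ribosomal proteins was below 0 in 2 of 17. The ranges were -0.78 to -0.32 for initiation, -0.58 to -0.15 for biogenesis, -0.51 to -0.10 for the mitochondrial ribosomal proteins and -0.04 to 0.32 for the members.

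**Figure D4:**
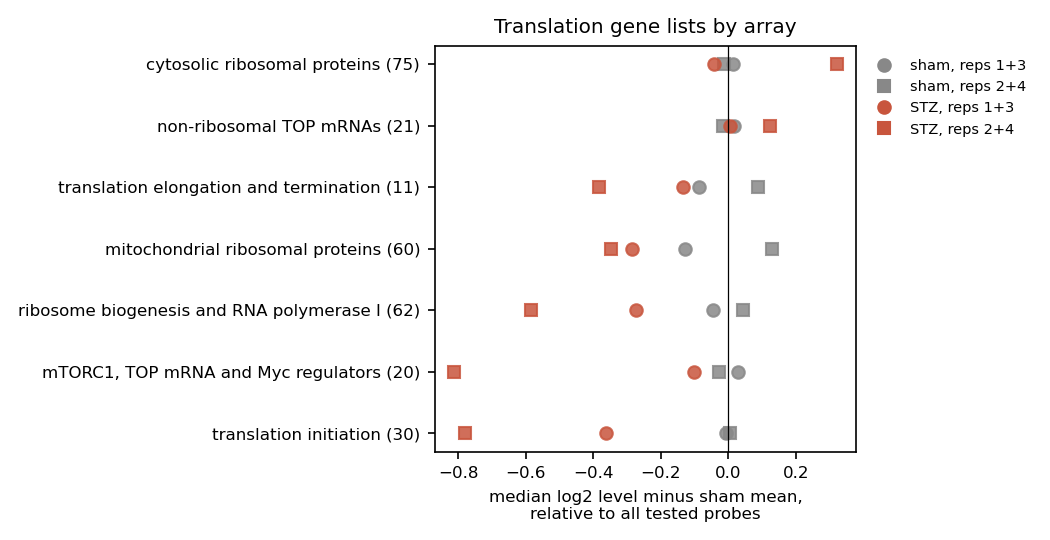
Median log2 level of each translation list minus the sham mean, relative to all tested probes, on each of the 4 arrays. The cytosolic ribosomal proteins stand at -0.04 and 0.32 on STZ arrays A and B, while the initiation and biogenesis lists stand below 0 on both.

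Hair follicle, erythroid, neutrophil, macrophage and T cell markers were called at an unadjusted p under 0.05 far more often than all tested probes, of which 7.32% were higher and 3.53% lower. In bulk skin, fewer cells of a type and less RNA per cell cannot be told apart. Keratinocyte markers were present on all arrays, with summed levels of 8.64 to 9.38. Their median change was 0.13 over 6 tested genes, with 0 called. Hair follicle markers were lower in 15 of 15 tested genes at an unadjusted p under 0.05, and their summed level was 9.61 and 9.64 in sham and 6.65 and 2.76 in STZ skin. Erythroid markers were lower in 7 of 7, with summed levels of 7.32 to 7.66 in sham and 5.09 to 5.11 in STZ skin.

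Immune markers lay the other way. At the same threshold 8 of 9 neutrophil, 13 of 14 macrophage and dendritic cell and 13 of 15 T and NK cell genes were higher. The summed neutrophil level was 0.65 to 0.90 in sham and 5.96 to 6.08 in STZ skin. Adipocyte markers were lower in 3 of 8, with a median change of -1.16, and fibroblast markers higher in 1 of 8, with a median of 0.53. B and plasma cell markers were higher in 2 of 5 and skeletal muscle markers in 1 of 11, with medians of 0.77 and -0.47, beside 7.32% of all tested probes. The single muscle call is near that background. The 12 tested cycling cell markers had a median change of -0.14 and 0 calls. The part of the hair follicle, erythroid and immune cell lists in the members' values was not tested.

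**Figure D5:**
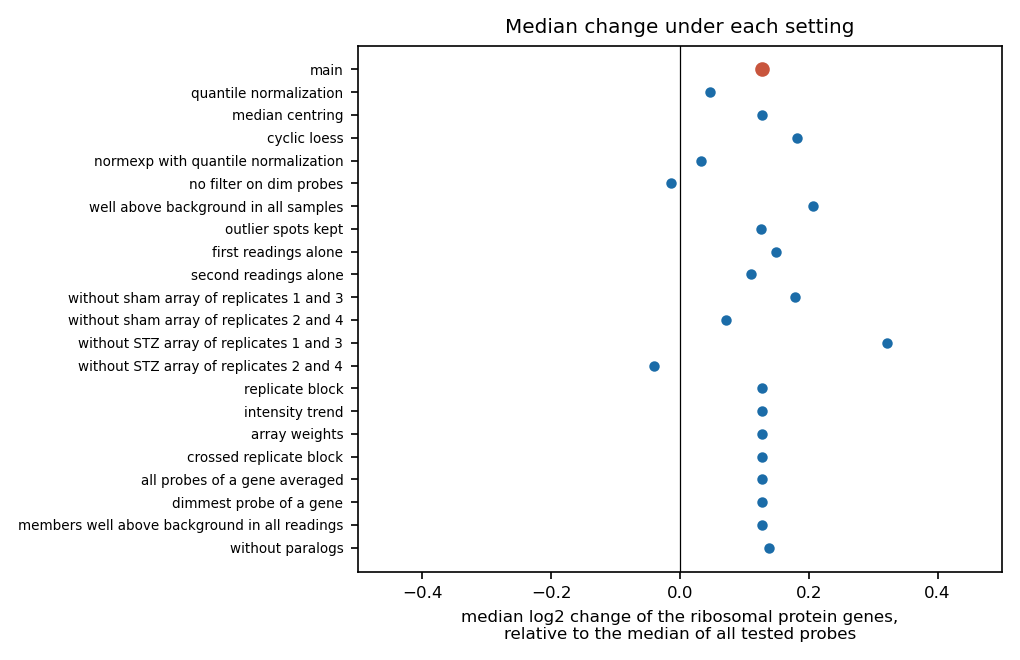
Median log2 change of the ribosomal protein genes under each setting of the processing, centred on the median change over the array. Among changes of processing and omissions of an array, the lowest value is -0.04 without STZ array B and the highest 0.32 without STZ array A.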

How the data were processed

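Total RNA of full-thickness skin was amplified, labelled with Cy3 for Agilent arrays of 1 colour, as the labels' protocols state. The deposited intensities are Agilent's processed signal, already background-corrected, made with Feature Extraction (11.0.1.1 by the file headers, 11.0.0.1 by the submitters' processing notes). The median spot and background intensities deposited beside it served 1 alternative. The deposited flags for background, saturation and outliers are other values, 0 or 1 a spot. Normalization of the arrays to each other by the authors was not stated in the labels or headers.

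Intensities were log2-transformed and scaled by subtracting each array's 75th percentile, and the spots of a probe were averaged without outlier spots. The rescans of an array were averaged. Tested were the 21529 probes with at least 50% of their spots well above background in 4 or more of the 8 readings. The test was that of limma 3.58.1 in R 4.3.3 (lmFit and eBayes, two-sided, Benjamini-Hochberg adjustment). The procedure was also run on simulated data with independent noise of equal variance on all 4 arrays. Those data do not cover an array that differs from the rest. Each p refers to the change scaled to the 75th percentile, while intervals are 95% intervals of the change relative to the median. The brightest probe stood for a gene.

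Probes were named through the RefSeq gene table of GRCr8, which held 14237 of 15284 NM accessions. Start sequences are from its promoter table. The members and lists were chosen with earlier results of these data known. The named members were the 10 of lowest p in each direction, the 6 brightest, Rplp0, Rplp1, Rplp2, Rpsa, Rps6 and Rps27a, and the paralogs. Up to 4 genes of each other list with the lowest p could be named. Some genes that these rules name are not reported here. Rpl22 and Rps4x are given only as partners of paralogs. The levels of 2 and 6 that split members by brightness were chosen after the data were seen. Same-numbered arrays did not deviate together (r = -0.20 over 21529 probes), and the numbers were not taken to pair the samples. The arrays lay on 1 slide, and their number limits the precision of every value.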

Additional observations from a re-analysis of the deposited data

How the results depend on the processing

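No ribosomal protein gene passed the adjusted threshold under any of the 17 alternatives run, and the members' median change stayed between -0.04 and 0.32. It was 0.35 when taken relative to the 75th percentile, with 0.39 for the small and 0.34 for the large subunit. Leaving out 1 array at a time gave -0.041 (without STZ array B) to 0.32 (without STZ array A) for all members, -0.045 to 0.38 for the small subunit and -0.043 to 0.32 for the large subunit. In the same fits 0 to 1 members were higher, and over the array 0 to 48 probes passed adjustment, 677 to 5382 were higher and 305 to 1093 lower at an unadjusted p under 0.05. These fits assume that the lone array of a group varies like the other group.

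The count past adjustment was 1243 with median centring, 66 with cyclic loess and 754 with an intensity trend, none of them a member. The count of lower probes was 1152 with quantile normalization, 1395 with median centring, 1182 with cyclic loess, 1358 with normexp and quantile normalization and 1145 with the trend. With the replicate block, 0 probes passed adjustment, 1582 were higher and 590 lower, and the member median was 0.13. The crossed pairing, chosen after seeing the data, gave 0, 2083 and 763. The other alternatives added after seeing the data were the test relative to the median change, members above background in all readings, and members without paralogs. Of 27 named genes, 12 changed sign in at least 1 of 20 alternatives, and 3 of 540 changes moved by over 1 SE. These were Rpl11 with quantile normalization (-0.94) and cyclic loess (-0.87), and Rps10 with normexp and quantile normalization (0.24). The cause was not tested. The number of arrays, 2 a group, limits what can be resolved.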
